A study of Arabidopsis thaliana with 2 samples.

Results

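The 33 genes described here are the plastid-encoded genes for photosystem I, photosystem II, the cytochrome b6f complex, the chloroplast ATP synthase and the large subunit of Rubisco. They were chosen by symbol: each gene had to be on the plastid genome and to be named alone by a probe set, with a symbol that starts psa, psb, pet or atp, or that is rbcL. Of the 13356 genes that a probe set named alone, 33 met this rule, each through 1 probe set, and none of these probe sets carries a suffix that marks possible cross-hybridization. They comprise 5 photosystem I genes, 15 photosystem II genes, 6 cytochrome b6f genes, 6 ATP synthase genes and rbcL.

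The chloroplast keeps a small genome of bacterial origin that encodes the core of each photosynthetic complex, while the nucleus encodes further subunits and nearly all regulators. Most of the plastid photosynthesis genes lie in operons that are copied as long shared transcripts and then cut, spliced and trimmed into smaller RNAs, mainly by a bacterial-type plastid RNA polymerase that depends on nuclear-encoded sigma factors. In a seedling grown in darkness the plastids are etioplasts, which lack chlorophyll and working photosystems, and light starts their conversion to chloroplasts.

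The samples were whole Landsberg erecta seedlings of Arabidopsis thaliana, with no transgene or mutation named in the labels. Seeds of both groups were kept in the dark at 4 °C for 2 days, were given 2 h of white light, and then grew in darkness at 23 °C for 7 days. The red light group then received 1 h of light with a maximum at 630 nm at about 10 µmol per square metre and second, and the dark group stayed in darkness for 1 h. Each group is 1 array made from 5 pooled seedlings, so there is no replicate spread, no test is possible, and every difference below describes these 2 arrays.

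Signals are linear intensities computed by the submitters, and 7282 genes counted as measured, with a mean signal of at least 102. All 33 genes passed this filter. The highest of 27 probe sets for bacterial transcripts absent from the plant read 20.5 (red light) and 11.5 (dark), well below the lowest signals of the 33 genes, 287 and 151. PORB, which encodes a protochlorophyllide oxidoreductase of etioplasts, read 2922 after red light and 5189 in the dark. PYK10, a gene of roots and hypocotyls, read 7781 and 9764. ICL, the isocitrate lyase gene that serves the use of seed oil in germinating seedlings, read 856 and 4352, so the pools also differed in this marker of seedling stage; its part in the ratios below was not tested. As a yardstick, log2 ratios from 37 pairs of probe sets naming the same gene differed by a median of 0.27.

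The comparison asks how the plastid photosynthesis transcripts stood after 1 h of red light. Signals of the 33 genes ran from 287 to 7796 with a median of 1836 after red light, and from 151 to 8417 with a median of 1348 in darkness. The log2 ratio, red light over dark, was above 0 for 29 of the 33 genes (87.9%), against 50.1% of all measured genes. Its median was 0.61, a 1.53-fold higher signal, against 0.00 over all measured genes. At the threshold of 2-fold, 3 of the 33 genes were higher (9.09%), where 4.82% of all measured genes were, and 0 were lower, where 2.44% of all were. At 1.5-fold, 17 were higher (51.5%) against 12.7% of all measured genes, and 2 were lower against 8.95%. The shift was thus spread over many genes and mostly under 2-fold. In whole seedlings, more plastid RNA per cell and a larger share of plastid-rich cells cannot be told apart.

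**Figure D1:**
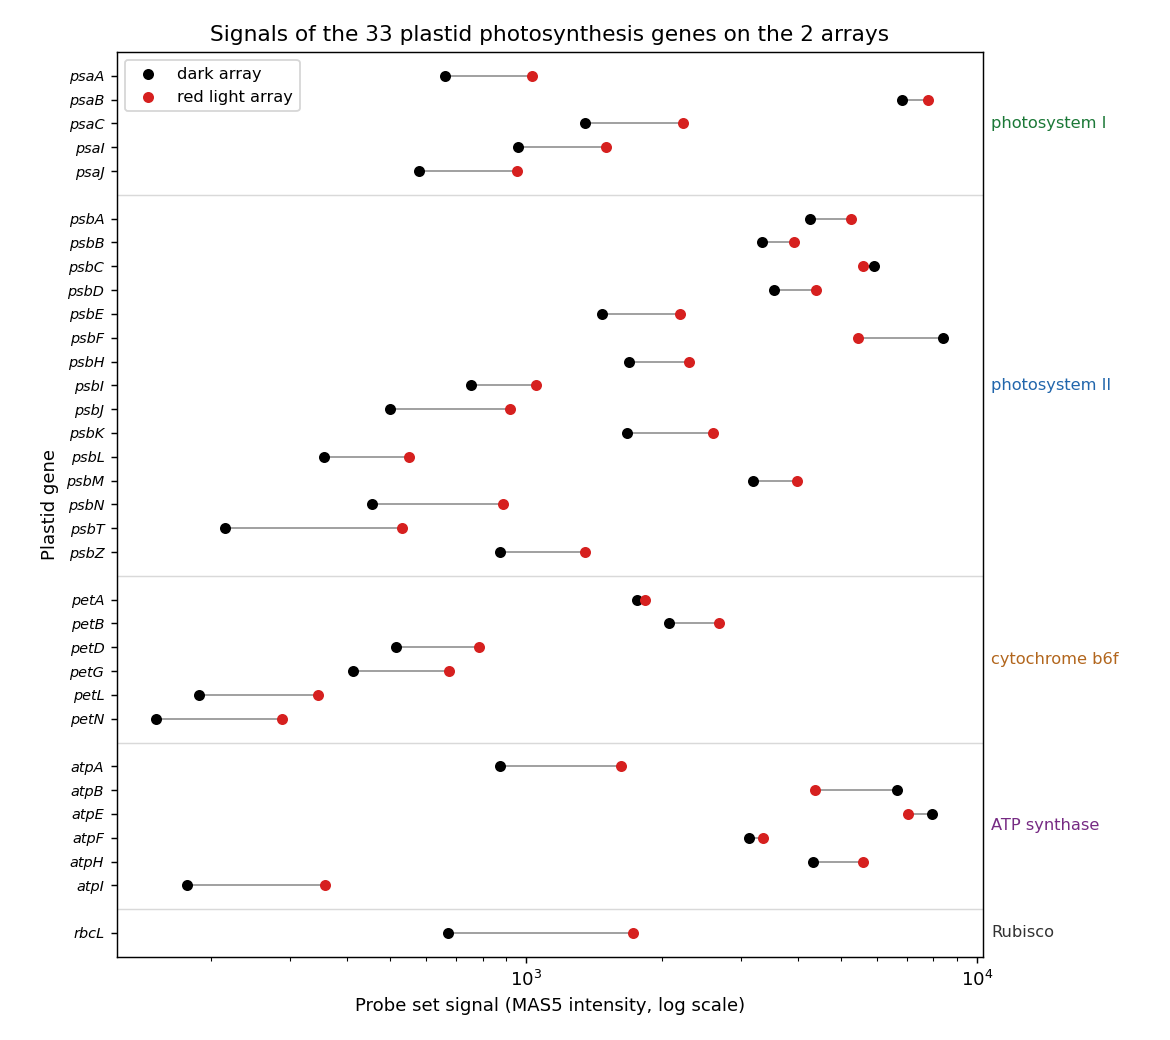
Signal of each of the 33 plastid genes in darkness (black) and after red light (red), in MAS5 intensity on a log axis, grouped by complex, with 1 array per group and no error bars. The red light signal lies to the right for 29 genes and to the left for psbC, psbF, atpB and atpE.

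The gene with the highest ratio was rbcL, which encodes the catalytic large subunit of Rubisco, the carbon-fixing enzyme (probe set 245015_at). It read 1724 after red light and 672 in the dark, a 2.57-fold higher signal. Its log2 ratio, 1.36, stayed between 1.32 and 1.66 under every scaling tried.

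All 5 photosystem I genes had higher signals after red light, with a median log2 ratio of 0.64. The large reaction centre proteins, which hold the chlorophyll pair and much of the inner antenna, come from psaA and psaB. The psaA probe set read 1030 after red light and 661 in the dark, 1.56-fold higher. That of psaB read 7796 and 6803, only 1.15-fold higher. The iron-sulphur protein that passes electrons on to ferredoxin comes from psaC, with signals of 2226 and 1348 (1.65-fold higher). The small membrane subunit genes psaI, at 1500 and 960, and psaJ, at 955 and 579, were 1.56-fold and 1.65-fold higher. Ratios of psaA, psaC, psaI and psaJ thus lay within 0.085 of each other on the log2 scale, and psaB stood below them at 0.20.

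Over the 15 photosystem II genes the median log2 ratio was 0.48, with 13 above 0 and the widest range of any complex, from -0.63 to 1.30. The 4 genes for the large chlorophyll-binding proteins had small ratios, with a median of 0.27. None was at least 1.5-fold higher, where 12.7% of all measured genes were, so none of 4 is close to that share. All 4 had probe sets among the 11 brightest of the 33, of which none was at least 1.5-fold higher. The small ratios of these 4 genes and their bright probe sets cannot be told apart here. For psbA, whose product is the reaction centre protein that is damaged and replaced in light, the signals were 5256 after red light and 4249 in the dark (1.24-fold higher). For its partner psbD they were 4401 and 3547 (1.24-fold higher). The inner antenna genes psbB and psbC read 3932 and 3337 (1.18-fold higher), and 5576 and 5911 (1.06-fold lower), respectively. The ratio of psbC was above 0 with loess correction, quantile normalization and centring on the hybridization controls, so it has no settled direction.

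Over the other 11 photosystem II genes the median was 0.63, with 6 at least 1.5-fold higher, against 12.7% of all measured genes. The highest was psbT, a small subunit gene (probe set 244973_at), at 530 after red light and 215 in darkness, 2.46-fold higher. Next came psbN, which lies on the opposite strand between psbT and psbH and is known from tobacco to act in photosystem II assembly rather than as a subunit. Its signals were 890 and 455, 1.96-fold higher and just under the 2-fold threshold. For psbJ the signals were 921 and 498 (1.85-fold higher), and psbK, psbL and psbZ were each 1.55-fold higher. These small membrane subunits help to assemble the reaction centre and its dimers. The ratios of psbE (1.49-fold higher), psbI (1.39-fold), psbH (1.36-fold) and psbM (1.25-fold) were smaller.

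One photosystem II gene stood on the other side. The psbF probe set (244963_at) read 5435 after red light and 8417 in the dark, 1.55-fold lower, with a log2 ratio of -0.63. The ratio stayed below 0 under every scaling, at -0.33 with centring on the hybridization controls. The proteins of psbE and psbF together bind the haem of the photosystem II cytochrome, yet psbE read 2194 and 1473 and so had the opposite direction, also under every scaling.

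Each of the 6 cytochrome b6f genes was higher after red light, and the median log2 ratio was 0.66. This complex carries electrons between the photosystems. Its small subunit genes were the higher ones: petN read 287 after red light and 151 in the dark (1.90-fold higher), petL read 345 and 188 (1.83-fold), and petG read 673 and 414 (1.63-fold). The probe sets of petN, petL, petG and petD were among the 11 dimmest of the 33, which were all at least 1.5-fold higher. Small subunits and dim probe sets cannot be told apart here. Among the large subunits, petD, for subunit IV, read 784 and 514 (1.53-fold higher) and petB, for cytochrome b6, read 2679 and 2071 (1.29-fold). The gene for cytochrome f, petA, read 1836 and 1757, 1.05-fold higher, which is less than the difference typical of probe sets of the same gene.

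The 6 ATP synthase genes had the lowest median of any complex, 0.24, and split by transcription unit. Both genes that were lower encode parts of the catalytic head: atpB, for the catalytic beta subunit (probe set 245014_at), read 4364 after red light and 6648 in the dark, 1.52-fold lower, and atpE, for the epsilon subunit, read 7029 and 7954, 1.13-fold lower. The ratio of atpB stayed below 0 under every scaling, while that of atpE was 0.12 with centring on the hybridization controls. The alpha subunit gene atpA, also of the head, read 1619 and 873 and was 1.86-fold higher. Of the membrane part, which lets protons through, atpI read 358 and 177 (2.03-fold higher), atpH, for the rotating ring, read 5586 and 4328 (1.29-fold), and atpF read 3354 and 3117 (1.08-fold). Under 2-fold came atpI with median centring, loess correction, quantile normalization and the pseudocount.

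Ratios differed within most operons, and more so where the probe sets differed in signal. In 9 operons with more than 1 of the 33 genes, the 32 pairs from the same operon differed in log2 ratio by a median of 0.38, close to the median of 0.41 for the 496 pairs from different operons. The 10 same-operon pairs with mean signals within 2-fold of each other differed by a median of 0.26, about the difference between probe sets of the same gene, and the 22 pairs further apart in signal differed by 0.48. Pairs from different operons were not split by signal. Whether the closeness of those 10 pairs goes with the shared operon was therefore not tested. Of the 9, 6 held a gene at least 1.5-fold higher together with one under 1.2-fold. In the psbE, psbF, psbL, psbJ operon, psbF at -0.63 sat between psbE at 0.57 and psbL at 0.63, with psbJ at 0.89. In the psbB operon, psbT at 1.30 followed psbB at 0.24 and preceded psbH at 0.44, petB at 0.37 and petD at 0.61. The opposite-strand gene psbN, next to psbT, had 0.97, and the strand that each probe set reads was not checked here.

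Other operons held both like and unlike ratios. The order in the atpI operon was 1.02 for atpI, 0.37 for atpH, 0.11 for atpF and 0.89 for atpA, and rps2, a ribosomal protein gene upstream in the same unit, had 0.21. In the psaA unit the ratios were 0.64 for psaA, 0.20 for psaB and 1.23 for the ribosomal protein gene rps14 at its end. In the psbD unit they were 0.31 for psbD, -0.08 for psbC and 0.63 for psbZ. For psaI and petA, at the ends of a unit with the assembly genes ycf4 (0.56) and cemA (0.10), they were 0.64 and 0.06. The unit of psaC, at 0.72, otherwise encodes the NADH dehydrogenase-like complex. Its genes ndhG (0.71), ndhA (0.75) and ndhH (0.73) were close to psaC, as was the adjacent rps15 (0.71), while ndhE had 0.46, ndhD 0.12 and ndhI 0.07. The petL, petG, psaJ operon was the even one among those with 3 or more of the genes, from 0.70 to 0.87, and psbK and psbI had 0.64 and 0.48.

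The divergent neighbours rbcL and atpB, read away from each other from the same spacer, stood 1.97 apart on the log2 scale, at 1.36 and -0.61. Downstream of rbcL, the fatty acid synthesis gene accD read 1168 after red light and 573 in the dark, with a log2 ratio of 1.03.

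**Figure D2:**
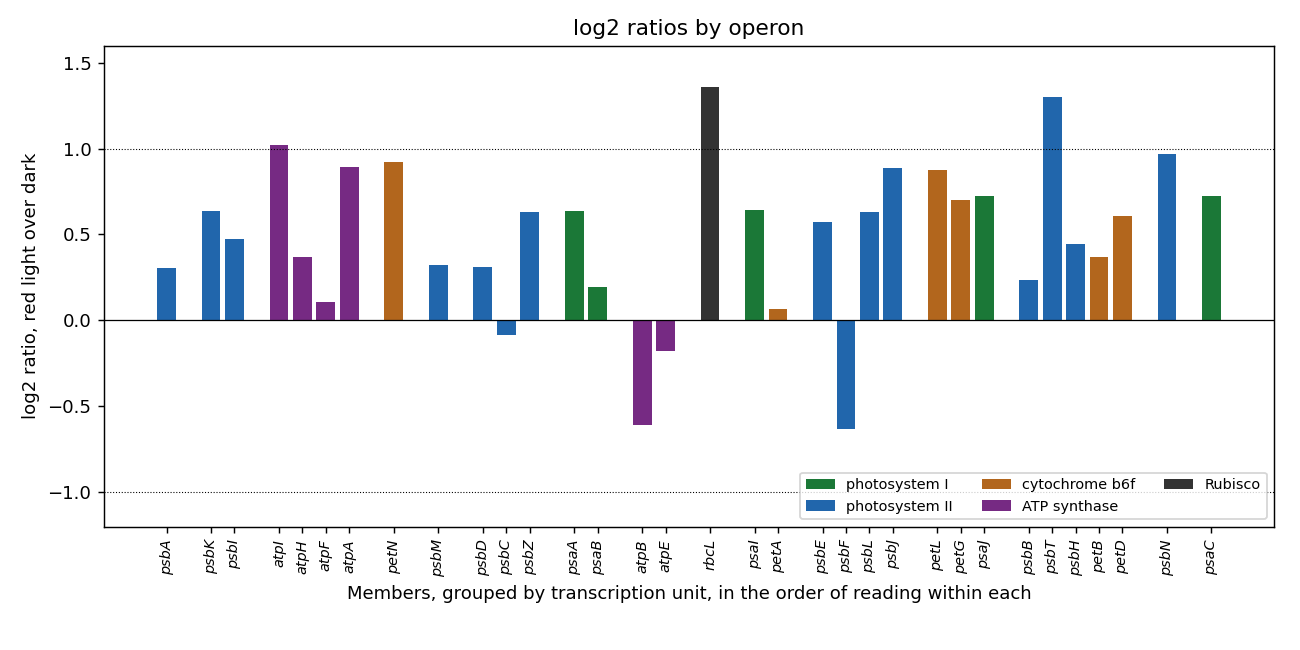
Bars give the log2 ratio (red light over dark) for each of the 33 genes, grouped by transcription unit and coloured by complex, with dotted lines at 2-fold and no error bars, since each group is 1 array. Ratios differ within most units, and rbcL (1.36) and atpB (-0.61) mark opposite sides.

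Ratios of the 33 genes went down with the signal of the probe set. Pearson's r between log2 ratio and mean log2 signal was -0.79 and Spearman's rho -0.84 over the 33 genes, which share the same 2 arrays and whose ratio and mean come from the same readings. The relation was weak in the 7214 measured genes outside the plastid genome (r = -0.12), and was close to that of the members in the 35 other measured plastid genes (r = -0.70). After loess correction, which removes the trend of all genes, r over the 33 genes was -0.72. A probe set's signal also depends on how well its probes bind, so the order of signals is not an order of transcript levels.

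The 11 genes with the dimmest probe sets, with mean signals of 208 to 825, were all at least 1.5-fold higher, with a median log2 ratio of 0.87. They are petN, atpI, petL, psbT, psbL, petG, petD, psbN, psbJ, psaJ and psaA, mostly genes for small subunits. The 11 in the middle, with mean signals of 891 to 2355, had a median of 0.63, and 6 of them were at least 1.5-fold higher. The 11 brightest, with mean signals of 3233 to 7477, had a median of 0.20, with 7 above 0, none at least 1.5-fold higher, and atpB and psbF at least 1.5-fold lower. They are atpF, psbM, psbB, psbD, psbA, atpH, atpB, psbC, psbF, psaB and atpE. Measured genes outside the plastid genome with signals in the same ranges had medians of 0.03, -0.09 and -0.12. Of them, 52.4%, 40.7% and 32.7% were above 0, and 12.8%, 8.28% and 3.11% were at least 1.5-fold higher. None of the 11 brightest at 1.5-fold higher is thus close to the share in that range. The medians of the 33 genes thus lay above those in each range, by less where the probe sets were brighter. All 4 genes with a ratio below 0 were among the brightest, so low ratios and bright probe sets cannot be told apart here. Whether bright probe sets had neared the limit of the array was not tested.

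**Figure D3:**
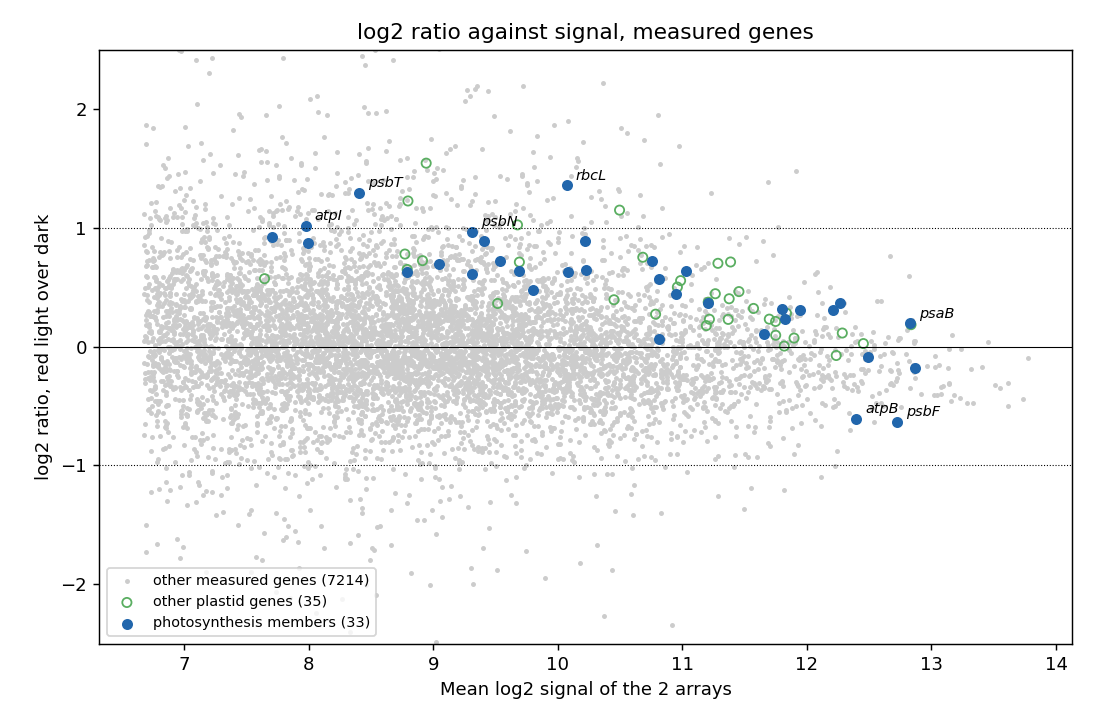
Log2 ratio (red light over dark) against the mean log2 signal of both arrays, for the 33 photosynthesis genes (blue), the 35 other measured plastid genes (green rings) and 7214 other measured genes (grey), of which 34 lie outside the plotted range. Blue points go down from left to right, from 1.30 for psbT to -0.61 for atpB and -0.63 for psbF.

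Other organellar transcripts had ratios above 0 as well. Over the 35 other measured plastid genes the median was 0.40, with 34 above 0, and over the 10 measured genes of the mitochondrial genome it was 0.39, with 8 above 0. Of all measured genes, 50.1% were above 0. The 25S ribosomal RNA control read 1372 after red light and 1466 in darkness, and the dim 5S control read 84.5 and 55.2. Plastid and mitochondrial messengers and ribosomal RNA lack the long poly(A) tails of nuclear messengers. The part that amplification of such RNA had in the ratios of the 33 genes was not tested. No difference between the 33 genes and other plastid genes can be tested with 1 array per group.

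Few nuclear partners of these complexes could be set beside them. Of 34 nuclear genes listed for photosystem, cytochrome, ATP synthase, plastocyanin and Rubisco proteins, only 7 were named alone by a probe set. All 7 were measured, so the signal filter removed none of them. Each of the 7 was higher after red light, by a median of 0.39 on the log2 scale, against 50.1% of all measured genes above 0. None reached 2-fold, which is close to the 4.82% of all measured genes that did. PSBW of photosystem II read 2975 after red light and 1663 in the dark (1.79-fold higher), and PSAE-1 of photosystem I read 8476 and 4988 (1.70-fold). RCA, the activase that keeps Rubisco working, read 8864 and 5877 (1.51-fold higher), beside the 2.57-fold of rbcL. ATPC1, for the gamma subunit that connects the ATP synthase head to its ring, had a log2 ratio of 0.35, PSAN one of 0.39, PSBY one of 0.24 and AT2G26500, for a small cytochrome b6f subunit, one of 0.12. The mean signals of 6 of the 7, all but PSBW, lay in the range of the brightest 11 plastid genes, with log2 ratios from 0.12 to 0.76. Outside this list, the photosystem II antenna genes LHCB4.1 and LHCB4.2 read 8945 and 9074 (log2 ratio -0.02), and 5328 and 2035 (1.39), respectively.

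Factors that read or process plastid genes were sparse among the named probe sets. None of 8 sigma factors and phage-type RNA polymerases was measured, and RPOTMP, the only one named alone by a probe set, read 101 and 76.8, under the filter. Of 37 polymerase-associated, RNA processing and RNA stability genes, only 4 were named alone by a probe set. These 4 were measured, all with a ratio above 0 and none at 2-fold. Over all measured genes, 50.1% were above 0 and 4.82% were at least 2-fold higher, so none of 4 is close to that share. NCP (named MRL7-L on the array), a partner of the plastid polymerase, had a log2 ratio of 0.67, with signals of 402 and 252. BFA2, a pentatricopeptide repeat protein needed for transcripts of the atpH and atpF genes, read 440 and 285 (0.63). CRP1, a protein of the same class with a role in cytochrome b6f expression in maize, read 513 and 338 (0.60). The RNA-binding protein gene CP29B had 0.37. The other genes of these lists are not analysed here.

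The order of the complexes was stable to scaling in part. Median centring and centring on the hybridization controls shift all ratios alike, so they cannot change the order. With loess correction, quantile normalization and the pseudocount, ATP synthase again had the lowest median, photosystem II came next and rbcL had the highest. The order of photosystem I and cytochrome b6f, 0.64 and 0.66 as deposited, turned with loess correction (0.67 and 0.63) and quantile normalization (0.65 and 0.61). It also turned, barely, with the pseudocount (0.632 and 0.631). Under the stricter filter the medians were 0.64 for photosystem I, 0.49 for cytochrome b6f, 0.48 for photosystem II and 0.11 for ATP synthase. The 11 dimmest probe sets included those of petN, petL, petG, petD and atpI. The 11 brightest included those of atpF, atpH, atpB and atpE, and none of cytochrome b6f. In this order, complex and probe set signal cannot be told apart. The median log2 ratio of the 18 hybridization controls was -0.30, so that centring on them raised every ratio by 0.30, and the median of all measured genes with them. On that scale 31 of the 33 genes were above 0, with psbF and atpB below, and 11 were at least 2-fold higher. Of all 7282 measured genes, 705 were then at least 2-fold higher, against 351 as deposited, and their median log2 ratio was 0.30. With loess correction or quantile normalization 30 were above 0.

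**Figure D4:**
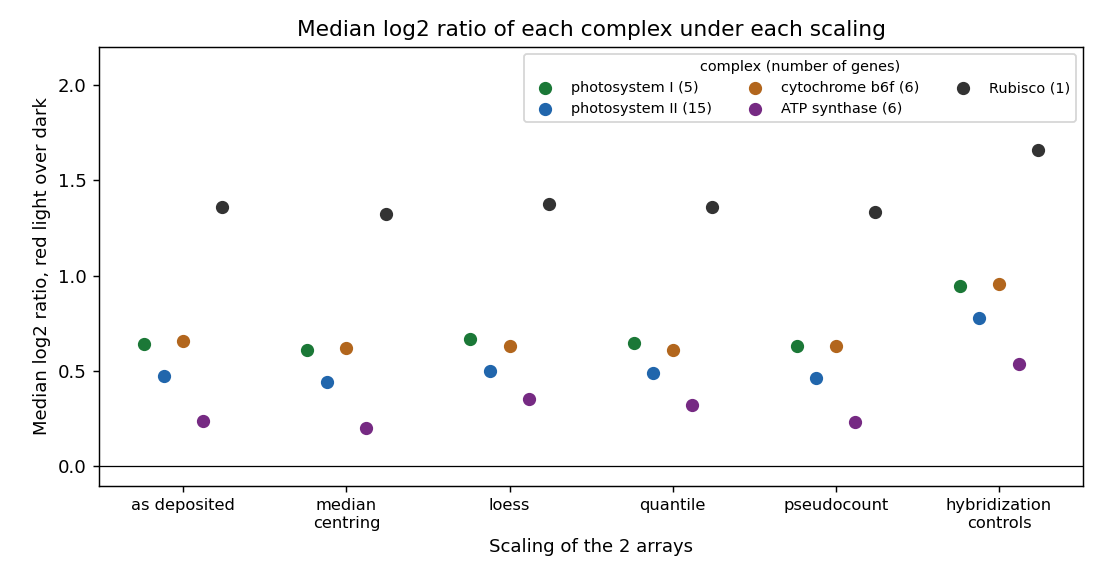
Median log2 ratio (red light over dark) of each complex under 6 scalings of the 2 arrays, with the number of genes of each complex in the key. Rubisco is rbcL alone. ATP synthase is lowest under each scaling (0.24 as deposited). Median centring and centring on the hybridization controls shift all complexes alike, the latter upward by 0.30.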

How the data were processed

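The deposited values are linear intensities of 22810 probe sets, which the authors computed with MAS5 (version 5 in the submitters' processing notes), with settings not given in the sources used here. After trimming 2% of probe sets at either end, both arrays had a mean of 500.0, and no further scaling was applied. Amplification started from 20 ng of total RNA, per the labels' protocols. Signals of the 3' over the 5' control probe sets stood at 40.1 (red light) and 35.8 (dark) for actin. They stood at 4.59 and 5.36 for ubiquitin, and at 2.06 and 2.11 for GAPDH. What such loss towards the 5' end did to ratios along an operon was not tested. Precision is limited by the number of arrays. Probe sets were named from the platform annotation. All 33 genes matched the plastid entries of a TAIR10.1 gene table, used for symbols and gene order only; coordinates are left out because the values name no build.

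Signals were turned to log2 and dark was subtracted from red light. A gene counted as measured at the 40th percentile of non-control probe sets, with the mean taken over probe sets of 1 gene. Complexes, operons and nuclear gene lists were written from textbook knowledge. The members and lists were chosen with earlier results of these data known. All 33 genes were to be named, and of other genes up to 3 per list with the largest ratios, genes sharing an operon with a member, and markers of the tissue; others, such as accD, PSAN, PSBY, ATPC1, AT2G26500, CP29B and RPOTMP, were named to complete the lists. Alternatives were median centring, loess (span 0.3), quantile normalization, hybridization control centring, a pseudocount of 22.1, other filters, other rules for probe sets and other thresholds. The steps were tested on simulated data. Python 3.11.15, numpy 2.4.6, pandas 2.3.3, scipy 1.17.1 and statsmodels 0.14.6 were used.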

Additional observations from a re-analysis of the deposited data

How the results depend on the processing

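No paired analysis was possible because only a single array exists per group. Medians of the 33 genes, the 5 complexes and the 9 operons moved by less than 0.27 under loess, quantile normalization, the pseudocount and the stricter filter. This is the typical difference between probe sets of the same gene. Median centring lowers each ratio by 0.035 by construction. Without a filter, and under both other rules for probe sets, the 33 ratios could not change. Each of these genes has 1 probe set, without a cross-hybridization suffix and above the filter. With hybridization control centring, which adds 0.30 to each ratio by construction, the medians were 0.91 for the 33 genes, 0.94 for photosystem I, 0.78 for photosystem II, 0.96 for cytochrome b6f, 0.54 for ATP synthase and 1.66 for rbcL. For the operons they were -0.092 for atpB, 0.93 for atpI, 1.02 for petL, 0.72 for psaA, 0.65 for psaI, 0.74 for psbB, 0.61 for psbD, 0.90 for psbE and 0.86 for psbK. Against 3 of the 33 genes at least 2-fold higher and 0 lower, the counts were 11 and 0 with that centring, 17 and 2 at 1.5-fold, and 0 and 0 at 3-fold. Against 351 higher and 178 lower among all measured genes, they were 705 and 91 with that centring, 1823 and 1279 without a filter, 172 and 89 under the stricter one, and 925 and 652 at 1.5-fold or 93 and 55 at 3-fold. The stricter filter left 30 of the 33 genes, without petN, petL and atpI. No called gene of the 33 changed sign. Signals of all 33 were far above background, and the missing replicates limit what can be said.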
